A study of Mus musculus with 12 samples.

Results

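The comparison described here is that of HT22 cells depleted of NCOA4 and deprived of iron (siNCOA4+DFO) with HT22 cells that were deprived of iron but received a control siRNA (siControl+DFO). It uses 6 of the 12 RNA-seq libraries of the study, 3 biological replicates in each group, chosen by the siRNA and the iron treatment in their labels. The other 6 libraries came from cells of the same line kept at normal iron and given either the control siRNA (siControl) or the Ncoa4 siRNA (siNCOA4), again 3 in each group. HT22 is an immortalised mouse hippocampal neuronal cell line. All cells, controls included, were transfected transiently with siRNA carried by liposomes. The study's methods name a single siRNA product against Ncoa4, so effects of that siRNA on other targets cannot be told apart from those of NCOA4 loss. Desferrioxamine (DFO), a chelator that enters cells poorly and binds iron outside them, was given at 100 µM for 24 h to both groups compared. Of the 24343 genes with a unique name in the expression files, 11541 had an FPKM, a level corrected for transcript length and library size, of at least 0.5 in 3 or more of the 6 DFO-treated libraries, and these were tested.

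Ferritin stores iron inside cells, and NCOA4 is the cargo receptor that carries ferritin to autophagosomes and on to the lysosome, where its iron is released. This route, ferritinophagy, becomes a source of iron when uptake from outside is restricted. Iron-regulatory proteins sense the labile iron pool. When iron is low they bind iron-responsive elements (IREs), which blocks translation of ferritin mRNA and protects the mRNA of the transferrin receptor from decay. The comparison asks which transcripts depend on NCOA4 once iron import is limited.

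The knockdown was seen in every library. Ncoa4 (chr14:32159865-32179855, plus strand, GRCm38) was at 8.70, 8.31 and 7.52 FPKM in siControl+DFO and at 0.85, 1.29 and 1.57 FPKM in siNCOA4+DFO. The groups were far apart, and the fall was 2.67 on the log2(FPKM + 0.1) scale (SE 0.21, adjusted p = 2.48e-05, limma). In this report a gene "rose" or "fell" where its adjusted p was below 0.05 in limma with Benjamini-Hochberg adjustment over all 11541 genes, "called" adds a fold change above 2, and every fold change is siNCOA4+DFO against siControl+DFO on the log2(FPKM + 0.1) scale unless stated otherwise. Labels call the replicates biological and say nothing of separate days, so the p-values measure the spread between these samples. In bulk RNA, fewer cells of a kind and less RNA per cell cannot be told apart.

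The cells carried few neuronal transcripts. Of 20 neuronal marker genes, 16 were below 0.5 FPKM in all 12 libraries, among them Map2, Rbfox3, Snap25 and Dcx, and 3 were tested. Tubb3, Syn1 and Eno2 were these 3, and Tubb3, a neuronal beta-tubulin, fell by 0.78 on the log2 scale (adjusted p = 0.0156, limma). By contrast 11 of 12 mesenchymal markers were tested, and Vim, an intermediate filament gene, lay between 1169 and 1453 FPKM in the 6 DFO-treated libraries. The summed level of the tested mesenchymal markers was 2832 to 2874 FPKM in siControl+DFO and 2592 to 3129 FPKM in siNCOA4+DFO. Snai2 fell and Col3a1 rose among them. Of 19 glial, vascular and immune markers, 3 were tested, Slc1a3 and Tmem119 among them, and none passed, with summed levels of 3.62 to 6.89 FPKM in siControl+DFO and 5.41 to 14.8 FPKM in siNCOA4+DFO. Replicate 3 of siNCOA4+DFO stood apart from the other 5 libraries. It lay at 52.7 on the first principal component of the 6 libraries, against 10.1 and 14.9 for the other two siNCOA4+DFO libraries and -32.7 to -18.1 for the controls, and it was the shallowest of the 12, the relative depth read from steps in the low values spanning 1.34-fold over the 6. The share of summed FPKM held by small RNA genes (small nucleolar, Cajal body and microRNA) also moved with the group, from 36.3% to 39.4% in siControl+DFO to 42.0% to 44.7% in siNCOA4+DFO, and its part in the results was not tested beyond refitting without those genes.

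**Figure D1:**
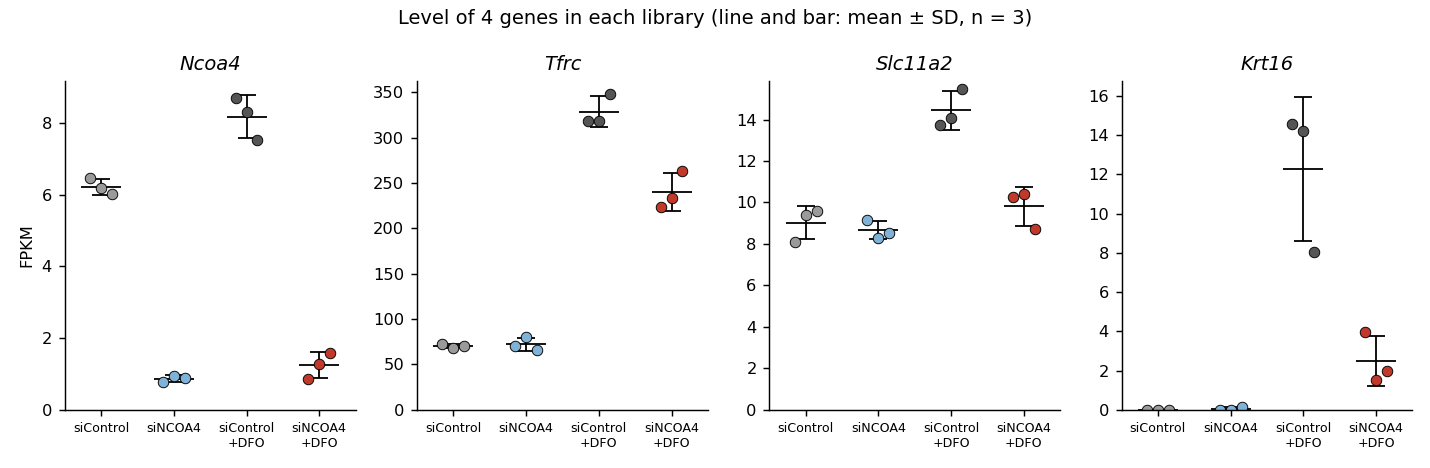
FPKM (vertical axis, linear) of Ncoa4, Tfrc, Slc11a2 and Krt16 in each of the 12 libraries, by group; points are libraries, and the line and bar are mean ± SD (n = 3). In all 4 panels the 3 siNCOA4+DFO points lie below the 3 siControl+DFO points. Groups did not overlap in 35.5% of all genes tested.

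Both iron uptake genes with IREs in the 3′ end of an annotated mRNA were lower without NCOA4. Tfrc (chr16:32608920-32632794, plus strand), the transferrin receptor, and Slc11a2 (chr15:100387898-100425072, minus strand), the divalent metal transporter DMT1, are shown here by sequences of the kind that iron-regulatory proteins bind. A search of the 3′ untranslated regions of the annotated transcripts for an unpaired C, a stem of 5 base pairs and a 6-base loop that starts with CAGTG or CAGAG gave 5 elements in Tfrc with all 5 stem pairs. It gave 1 element in Slc11a2, with 4 of 5 pairs, in a transcript that ends in the longer of the annotated 3′ regions. In each gene the elements were in 1 annotated transcript. FPKM is given per gene, so whether that transcript fell cannot be told from the others of its gene. The 6-base loop is in capitals, and the elements are given 5′ to 3′ on the strand of the gene.
Tfrc element at chr16:32631166-32631182: cagtgaCAGAGTtcact
Tfrc element at chr16:32631225-32631241: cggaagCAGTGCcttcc
Tfrc element at chr16:32631604-32631620: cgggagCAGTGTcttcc
Tfrc element at chr16:32631669-32631685: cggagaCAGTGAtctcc
Tfrc element at chr16:32631716-32631732: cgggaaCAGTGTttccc
Slc11a2 element at chr15:100395159-100395175: cagagcCAGTGTgtttc
The same letters with all 5 pairs occur anywhere in a transcript of 4.27% of the 11066 tested genes with a transcript sequence, and with at least 4 pairs in 28.6% of them, so a single match is a description and not evidence of a working element.

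Tfrc was at 319, 318 and 348 FPKM in siControl+DFO and at 224, 233 and 264 FPKM in siNCOA4+DFO. The groups did not overlap, which was true of 35.5% of all genes tested, and the fall was 0.45 on the log2 scale (SE 0.09, adjusted p = 0.00467, limma). At normal iron Tfrc was at 70.3 ± 2.0 FPKM in siControl and 72.0 ± 7.2 FPKM in siNCOA4 (mean ± SD, n = 3), so the levels with DFO were well above those without it in both siRNA groups. Slc11a2 was at 13.7, 14.1 and 15.5 FPKM in siControl+DFO and at 10.3, 10.4 and 8.74 FPKM in siNCOA4+DFO. Every depleted library was below every control, and the fall was 0.56 (SE 0.11, adjusted p = 0.00551, limma). Its level in siNCOA4+DFO, 9.81 ± 0.93 FPKM (SD, n = 3), stood near the 9.02 ± 0.81 FPKM of siControl cells at normal iron. An exact permutation test over the 3 against 3 libraries gave p = 0.1 (two-sided) for each of Ncoa4, Tfrc, Slc11a2 and Krt16, the smallest p that 20 arrangements allow. For Tfrc, quantile normalization reduced the fall to 0.22 (adjusted p = 0.189, limma). The difference between the knockdown effects with and without DFO did not pass for either gene (Tfrc -0.48, adjusted p = 0.0626, and Slc11a2 -0.50, adjusted p = 0.111, limma).

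Most other iron genes showed no change that passed. Of 11 tested genes for iron import and reduction, 1 rose (9.09%) and 2 fell (18.2%), the 2 being Tfrc and Slc11a2. Over all genes tested 6.40% rose and 10.7% fell. Mcoln1, the lysosomal cation channel that also conducts iron out of lysosomes, was the one that rose, from 11.96, 13.7 and 14.7 FPKM to 20.3, 23.2 and 18.4 FPKM (log2 fold change 0.61, adjusted p = 0.00381, limma). The iron and zinc importers Slc39a14 (log2 fold change -0.37, adjusted p = 0.165, limma) and Slc39a8 (0.57, adjusted p = 0.123), the ferrireductases Steap1 (0.11), Steap2 (0.20) and Steap3 (0.05), the mitochondrial importers Slc25a37 (0.03) and Slc25a28 (0.41, adjusted p = 0.0559) and the siderophore-binding Lcn2 (-0.43) did not pass. Tfr2, Steap4 and Cybrd1 were too low to be tested. Ferritin mRNA did not pass either. Fth1, the ferritin heavy chain, was at 945, 992 and 973 FPKM in siControl+DFO and at 940, 923 and 769 FPKM in siNCOA4+DFO, a difference of -0.15 with a 95% interval from -0.37 to 0.07. For Ftl1, the light chain, the difference was 0.01 with an interval from -0.24 to 0.25, and 69.9% of the 75-base stretches of its longest transcript are also found in other transcripts, Ftl1-ps1 among them. IRE control of ferritin acts on translation, which RNA-seq does not measure. The iron chaperones Pcbp1 and Pcbp2 were the 2 of 6 tested storage and export genes that fell, by 0.35 and 0.30 (adjusted p = 0.0467 and 0.019, limma), and neither passed without siNCOA4+DFO replicate 3 or without siControl+DFO replicate 3. Cp, the ferroxidase ceruloplasmin (-0.01), and Bdh2, a siderophore-synthesis enzyme (0.90, adjusted p = 0.22, limma), did not pass. Slc40a1, the iron exporter ferroportin, was not tested. It was listed at 0, 0.08 and 0 FPKM in siControl+DFO and at 0.27, 0.42 and 0.44 FPKM in siNCOA4+DFO.

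None of the 4 tested iron-sensing genes passed. Ireb2, which encodes IRP2, was at 38.5, 34.3 and 36.3 FPKM and at 35.6, 34.8 and 39.8 FPKM, and the 95% interval of its difference ran from -0.21 to 0.24. The groups overlapped. For Aco1 (IRP1) the difference was -0.05, for Fbxl5, the iron-binding ubiquitin ligase adaptor that marks IRP2 for breakdown, 0.18, and for Herc2 -0.29 (adjusted p = 0.0593, limma). In iron-sulfur cluster assembly 3 of 25 genes rose (12%) and 1 fell (4%), against 6.40% and 10.7% of all genes tested. Nfs1, the cysteine desulfurase, rose by 0.69 and its partner Lyrm4 by 0.64, Fam96a of the cytosolic targeting complex rose by 0.36, and the mitochondrial chaperone Hspa9 fell by 0.37. Without siControl+DFO replicate 2, 1 gene of the list rose. In heme synthesis and breakdown 1 of 17 genes rose (5.88%, against 6.40% of all genes tested). It was Abcg2, a porphyrin exporter (0.68, adjusted p = 0.0192, limma), which did not pass without siControl+DFO replicate 1 or without siNCOA4+DFO replicate 2.

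Beyond the iron genes the response was broad and mostly small. At adjusted p below 0.05, 739 genes rose (6.40% of those tested) and 1234 fell (10.7%). A fold change above 2 was reached by 236 genes (2.04%), 115 of them higher (0.996%) and 121 lower (1.05%). In 231 of the 236 the groups did not overlap, against 35.5% of all genes tested. The 236 were selected on these same libraries, so their separation is no further evidence. The median log2 fold change over all genes was -0.01. Without siNCOA4+DFO replicate 3, 166 genes were called, 67 higher and 99 lower. Of the 236, 127 were also called without that library (48 of the higher and 79 of the lower). All 213 that could still be tested kept their sign, which is fixed in advance wherever the groups do not overlap. When small RNA genes were left out and the rest rescaled, 173 genes were called higher and 91 lower, so the split between directions depends on the scaling.

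**Figure D2:**
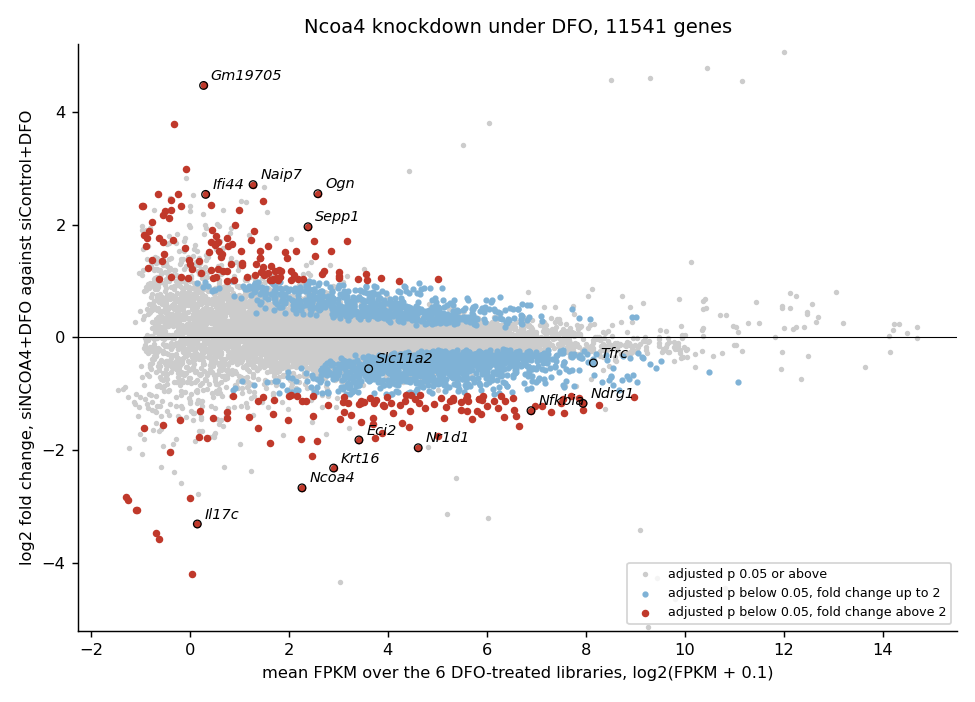
Log2 fold change (vertical axis) against mean level over the 6 DFO-treated libraries (horizontal axis, log2 of FPKM + 0.1) for the 11541 genes tested; colours mark the adjusted p and the fold change, and named genes are circled. Falls above 2-fold extend to highly expressed genes such as Ndrg1 and Nfkbia, while the rises above 2-fold lie mostly at low levels; 5 genes lie outside the vertical axis, which ends at 5.2 on either side.

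The largest falls among genes with a mean of at least 1 FPKM and groups that did not overlap included Il17c, Ncoa4, Krt16, Ccl4, Nr1d1, Evpl and Eci2. Il17c, an epithelial cytokine, was at 1.83, 2.59 and 1.10 FPKM in siControl+DFO and at 0, 0.54 and 0 FPKM in siNCOA4+DFO, and did not pass in 5 of the alternative fits. Krt16, a keratin induced in stressed epithelium, went from 14.6, 14.2 and 8.03 FPKM to 3.94, 1.54 and 1.99 FPKM (-2.32, SE 0.47, adjusted p = 0.00601, limma). In siControl cells at normal iron Krt16 was listed at 0 in all 3 libraries. About 28.9% of the 75-base stretches of Krt16 are shared with Krt14 or the pseudogene Gm11597, and with a pseudocount of 0.01 the adjusted p was 0.123. Evpl, which encodes the cornified-envelope protein envoplakin, fell from 9.36, 9.38 and 8.70 FPKM to 3.48, 2.61 and 1.69 FPKM. That each library of siNCOA4+DFO was below each control was a condition of the rule that named Evpl. Nr1d1, the heme-binding clock repressor REV-ERBα, fell from 40.0, 39.7 and 36.3 FPKM to 12.7, 9.56 and 7.94 FPKM (-1.96, SE 0.18, adjusted p = 7.27e-05, limma). Eci2, an isomerase of unsaturated fatty acid oxidation, fell from 14.7, 15.4 and 18.8 FPKM to 2.78, 4.73 and 7.01 FPKM.

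The largest rises by the same rule were Gm19705, Naip7, Ogn, Ifi44, Ugt1a5, Akr1c12, Sepp1 and Tle2. Gm19705, a long intergenic noncoding RNA gene, was listed at 0 in all siControl+DFO libraries and at 2.21, 3.11 and 1.35 FPKM in siNCOA4+DFO. No fold change is given, and it met the FPKM limit for testing only in the siNCOA4+DFO libraries, so its separation was fixed by that limit. Ogn, the small matrix proteoglycan osteoglycin, rose from 1.16, 0.98 and 2.67 FPKM to 5.66, 7.27 and 17.7 FPKM (2.55, SE 0.39, adjusted p = 0.00144, limma), replicate 3 being the highest of the 3. Sepp1, the selenium carrier selenoprotein P, rose from 1.64, 2.39 and 2.08 FPKM to 8.59, 6.50 and 9.58 FPKM (1.96, SE 0.21, adjusted p = 0.0002, limma). That the knockdown libraries were all above the controls was a condition of the same rule. Naip7, Ugt1a5 and Akr1c12 belong to families whose members share sequence, and their single-gene values are uncertain. Naip7 (2.71), like its relatives Naip5 (1.25) and Naip2 (0.73), rose, and 23.8% of the 75-base stretches of Naip5 occur in other Naip transcripts. Ugt1a5 (2.42), a glucuronosyltransferase, shares 63.6% of them with other Ugt1a transcripts, and Akr1c12 (2.26), an aldo-keto reductase, shares 17.3% with Akr1c13. Tle2, a Groucho-family corepressor, rose from 0.48, 0.20 and 0.71 FPKM to 0.91, 2.43 and 2.81 FPKM. All 8 genes were low in siControl+DFO, the highest single value being 2.67 FPKM.

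**Figure D3:**
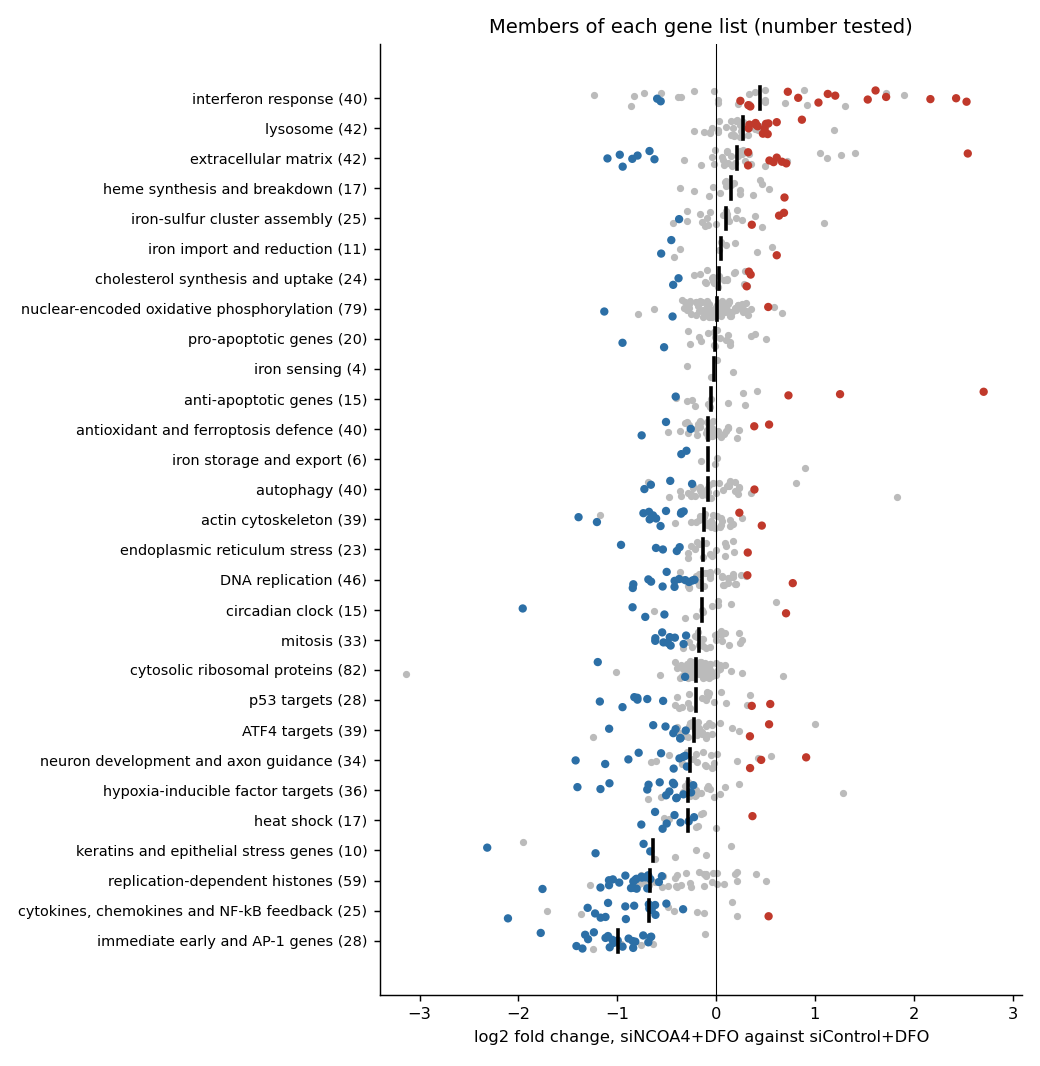
Log2 fold change (horizontal axis) of every tested member of 29 gene lists, ordered by median (black bar); blue and red points fell and rose at adjusted p below 0.05 and grey points did not pass. Immediate early genes, with a median of -0.99, lie at the bottom and interferon genes, with a median of 0.44, at the top.

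The most uniform fall was in the immediate early and AP-1 genes, transcription factors and feedback phosphatases that cells switch on within minutes of a stimulus. Of 28 members 21 fell (75%, against 10.7% of all genes tested) and none rose. Falls of more than 2-fold were seen in 11, and in 1.05% of all genes. All 28 had a negative fold change, with a median of -0.99. Dusp1, a MAP kinase phosphatase, was at 83.5, 82.6 and 85.1 FPKM in siControl+DFO and at 46.4, 31.2 and 24.2 FPKM in siNCOA4+DFO. Egr1, an early growth response factor, fell from 120, 125 and 109 FPKM to 54.9, 48.2 and 32.6 FPKM, and Myc from 212, 258 and 196 FPKM to 106, 102 and 63.2 FPKM (-1.32, SE 0.16, adjusted p = 0.000462, limma). In each of the 3 genes replicate 3 was the lowest, and replicates 1 and 2 were also below all controls. Groups did not overlap in 26 of the 28 members and in 35.5% of all genes tested. Nr4a3, an orphan nuclear receptor, fell by 1.77, Junb by 1.30, Zfp36 by 1.24, Jun by 1.05 and Fosl1 by 1.04. The median member was 0.70, 0.87 and 1.33 below the control mean on the log2 scale in siNCOA4+DFO replicates 1, 2 and 3. At normal iron Jund averaged 27.2 FPKM in siControl and 21.9 FPKM in siNCOA4, against 33.8 FPKM in siNCOA4+DFO. For Egr1 and Dusp1 the levels at normal iron were far lower in both siRNA groups. Egr1 was at 7.91 ± 0.92 FPKM in siControl and 4.49 ± 1.0 FPKM in siNCOA4, and Dusp1 at 7.57 ± 2.1 FPKM and 6.65 ± 1.2 FPKM (SD, n = 3). Without siNCOA4+DFO replicate 3, 19 of the genes fell. Of 22 members with a promoter sequence (described with the NF-κB group), Maff and Dusp1 held the cAMP-response letters TGACGTCA, which 3.82% of all promoters held, and none held the AP-1 letters TGANTCA, which 6.14% held.

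Cytokines, chemokines and the feedback genes of NF-κB fell alongside. Of 25 tested members 16 fell (64%), 6 of them more than 2-fold, and 1 rose (4%), with a median of -0.68. Over all genes tested 10.7% fell and 6.40% rose. A further 16 members were too low to be tested. Nfkbia, the inhibitor that NF-κB itself induces, was at 177, 190 and 138 FPKM in siControl+DFO and at 76.6, 77.4 and 52.3 FPKM in siNCOA4+DFO (-1.30, SE 0.15, adjusted p = 0.000321, limma). The neutrophil chemokine Cxcl1 fell from 214, 199 and 159 FPKM to 110, 98.2 and 49.1 FPKM and the T cell chemokine Ccl5 from 232, 290 and 229 FPKM to 139, 116 and 84.1 FPKM. No library of siNCOA4+DFO reached the lowest control in any of the 3. Groups did not overlap in 22 of the 25 members and in 35.5% of all genes tested. Tnfaip3, the NF-κB-limiting enzyme A20, fell by 1.09, Ccl7 by 1.12 and Ccl2 by 0.91, and Ccl9 rose by 0.53. Ccl4 fell from 9.65, 10.8 and 5.41 FPKM to 2.30, 3.74 and 0.695 FPKM but did not pass in 3 of the alternative fits. Leaving out siNCOA4+DFO replicate 3 or siControl+DFO replicate 2 left 11 falls.

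The promoters of this group were searched for the letters that NF-κB binds. Promoter sequences (250 bases before to 50 after the start, RefSeq, GRCm38.p6) were at hand for 15 members, and GGG and TTCC with any 3 bases between them, on either strand, were in 8 of them (53.3%), against 7.48% of the 8762 tested genes with a promoter sequence. Of the 9 falling members with a sequence, 6 had it. The AP-1 letters TGANTCA were in 8 of the 15 as well (53.3%, against 6.14% of all), and in 4 of the 9 falling members. The stretches below, 60 bases around the first match and read on the strand of the gene, show the NF-κB letters in capitals for 3 of them.
Nfkbia at chr12:55492642-55492701, minus strand: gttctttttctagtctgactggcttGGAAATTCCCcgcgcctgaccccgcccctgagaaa
Cxcl1 at chr5:90891131-90891190, plus strand: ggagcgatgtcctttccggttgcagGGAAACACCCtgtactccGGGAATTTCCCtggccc
Tnfaip3 at chr10:19015388-19015447, minus strand: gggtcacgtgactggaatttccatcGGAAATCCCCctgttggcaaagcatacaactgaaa
The stretch of Cxcl1 holds overlapping matches besides the first. Matches counted on both strands numbered 3 for Cxcl1, 2 for Tnfaip3 and 1 for Nfkbia. Among all genes that fell, 8.78% had the letters and among all that rose 8.73%. A match describes the sequence only.

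Of the epithelial stress genes, a small group in this line, 25 members were not expressed enough to be tested. Among the 10 tested, 4 fell (40%, against 10.7% of all genes tested). Besides Krt16 these were Krt80 (-0.73), the pluripotency and barrier factor Klf4 (-0.67) and Hbegf, an EGF receptor ligand that fell from 20.6, 21.3 and 20.9 FPKM to 9.11, 9.89 and 7.91 FPKM (-1.22, SE 0.17, adjusted p = 0.000932, limma). Hbegf varied little within each group.

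Interferon-response genes moved the other way. Of 40 tested, 14 rose (35%), 9 of them more than 2-fold, and 2 fell (5%), with a median of 0.44. Over all genes tested 6.40% rose and 10.7% fell. Most of the strong risers were expressed at low levels. Ifi44 was at 0.11, 0.57 and 0.20 FPKM in siControl+DFO and at 2.56, 2.17 and 1.28 FPKM in siNCOA4+DFO, and Irf7, the interferon-induced transcription factor, at 0.36, 0 and 0.17 FPKM and at 1.09, 1.35 and 1.03 FPKM. The immunity GTPase gene Irgm2 rose from 1.10, 0.86 and 0.99 FPKM to 3.67, 2.66 and 4.18 FPKM (1.72, SE 0.26, adjusted p = 0.00118, limma). The groups did not overlap in Irgm2, which was true of 35.5% of all genes tested. For Ifi44 separate groups were a condition of the rule that named it among the largest rises. Irf7 met the FPKM limit for testing only in the siNCOA4+DFO libraries, so its separation was fixed by that limit. Usp18 rose by 1.61, Igtp by 1.53 and Oas1a by 1.21, while Irf1 fell by 0.60 and Ifit1 by 0.56. The count of rises depended on single libraries. It was 6 without siNCOA4+DFO replicate 1, 7 and 8 without siControl+DFO replicates 2 and 3, and 9 without siNCOA4+DFO replicate 3.

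An interferon element, 2 copies of GAAA with any 2 bases between them, on either strand, was in the promoters of 17 of 30 members with a sequence (56.7%), against 3.63% of all promoters, and in 5 of the 9 risers with a promoter sequence. Igtp and Irgm2 lie together on chromosome 11 with nearly identical promoters, so they are not independent examples. The Igtp stretch ends just before the annotated start of Irgm2 (chr11:58199618-58222782). Other transcripts, Igtp among them, hold 4.28% of the 75-base stretches of Irgm2, so the single-gene values of both are uncertain. The element is in capitals.
Igtp at chr11:58199497-58199556, plus strand: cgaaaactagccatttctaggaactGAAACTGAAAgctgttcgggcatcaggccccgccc
Irgm2 at chr11:58214888-58214947, plus strand: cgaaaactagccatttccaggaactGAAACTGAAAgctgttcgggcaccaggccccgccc
Oas1a at chr5:120907511-120907570, minus strand: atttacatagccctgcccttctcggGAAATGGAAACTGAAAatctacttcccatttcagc
In Oas1a 2 matches overlap. The element was also in 1 of the 2 falling members with a promoter sequence. Among all genes that rose 4.55% had it and among all that fell 4.08%. Members were chosen as interferon-response genes, and a match describes the sequence only.

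Lysosomal genes rose in 13 of 42 tested members (31.0%, against 6.40% of all genes tested) and fell in none. A positive fold change was found in 37 of the 42, and the median was 0.27. The increases were small and spread over enzymes, membrane proteins and the proton pump. Tpp1, a lysosomal peptidase, was at 19.0, 20.5 and 21.6 FPKM in siControl+DFO and at 39.3, 39.1 and 33.7 FPKM in siNCOA4+DFO (0.87, SE 0.14, adjusted p = 0.00186, limma). Lamp2, a lysosomal membrane glycoprotein, rose from 48.1, 45.1 and 52.97 FPKM to 62.7, 70.7 and 78.1 FPKM and Atp6v0e, a proton pump subunit, from 72.4, 74.9 and 70.6 FPKM to 114, 105 and 95.3 FPKM. The groups were separate for all 3, as they were for 23 of the 42 members and 35.5% of all genes tested. Lamp1 (0.50), Ctsa (0.49), Atp6v1a (0.47) and Ctsb (0.33) rose as well, beside Mcoln1 given above. Leaving out any 1 of the 6 libraries kept the count between 10 and 15, and refitting without small RNA genes raised it to 21. At normal iron the knockdown raised 2 of the 42, and the difference between the effects with and without DFO passed for 3 of them. Over all genes tested the shares were 4.72% and 2.30%.

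The E-box TCACGTGA, the core of the CLEAR element bound by TFEB and its relatives, was in the promoters of 8 of 33 lysosomal genes with a sequence (24.2%) and in 4 of the 10 risers with one, against 2.37% of all promoters and 4.73% of those of all genes that rose. Being palindromic it reads the same on both strands. Among all genes that fell 1.88% had it, and a match describes the sequence only. The E-box is in capitals in these 60-base stretches.
Mcoln1 at chr8:3500447-3500506, plus strand: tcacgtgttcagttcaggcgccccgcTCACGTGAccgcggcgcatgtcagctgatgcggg
Ctsa at chr2:164833734-164833793, plus strand: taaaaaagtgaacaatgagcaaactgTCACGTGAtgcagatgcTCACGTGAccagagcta
Atp6v1a at chr16:44139358-44139417, minus strand: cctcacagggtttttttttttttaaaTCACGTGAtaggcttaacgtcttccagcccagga
Of 40 autophagy genes 1 rose and 4 fell, and 10.7% of all tested genes fell. Sqstm1, the receptor p62, fell from 605, 641 and 565 FPKM to 438, 426 and 299 FPKM (-0.66, adjusted p = 0.00414, limma), Gabarapl1 fell by 0.73, Wipi2 by 0.46 and Tax1bp1 by 0.24, and Gabarap rose by 0.39. Without siControl+DFO replicate 1 or replicate 2 the falls numbered 2.

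**Figure D4:**
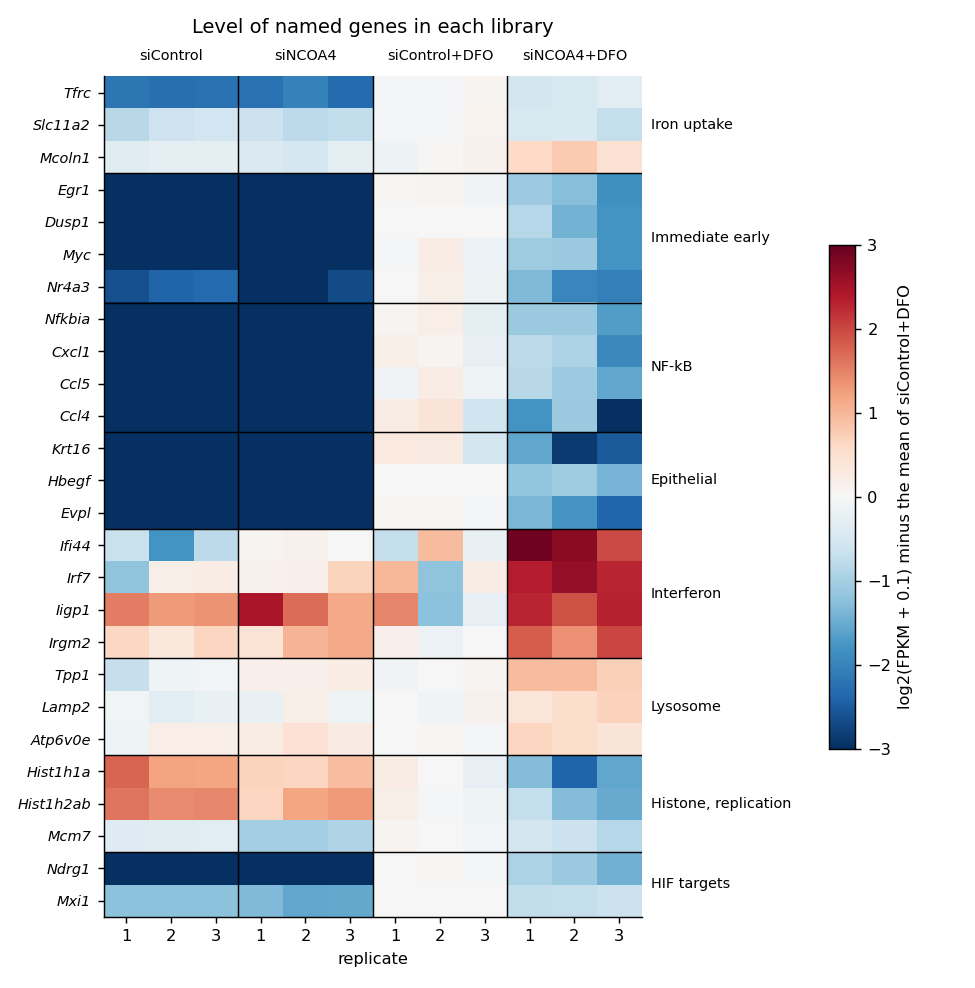
Level of named genes (vertical) in each of the 12 libraries (horizontal, by group and replicate) as log2(FPKM + 0.1) minus the mean of siControl+DFO; blue is lower and red higher, and the colour scale ends at 3 on either side. The immediate early, NF-κB, epithelial and HIF target genes (Ndrg1 and Mxi1) plotted are blue in siNCOA4+DFO and, up to the end of the scale, darker blue at normal iron in both siRNA groups, and the interferon and lysosomal genes plotted are red in siNCOA4+DFO.

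Cell cycle genes were held in lists of histones, DNA replication and mitosis. Of 59 tested replication-dependent histone genes 21 fell (35.6%, against 10.7% of all genes tested), 5 of them more than 2-fold. None rose, and the median was -0.66. Hist1h1a, a linker histone, was at 57.4, 49.7 and 41.3 FPKM in siControl+DFO and at 19.7, 9.16 and 16.7 FPKM in siNCOA4+DFO (-1.76, SE 0.24, adjusted p = 0.000842, limma), and Hist1h2ab fell from 26.0, 22.1 and 20.9 FPKM to 14.0, 9.24 and 8.03 FPKM. Single histone genes are uncertain, since copies are alike (55.4% of the 75-base stretches of Hist1h2ab occur elsewhere). Under quantile normalization 13 histone genes fell. In DNA replication 13 of 46 genes fell (28.3%) and 2 rose (4.35%, against 6.40% of all genes tested), with a median of -0.14. Mcm7, a subunit of the replicative helicase, fell from 149, 141 and 133 FPKM to 96.4, 89.4 and 77.6 FPKM (-0.69, SE 0.08, adjusted p = 0.000411, limma), Ccne1 (cyclin E1) and E2f2 both fell by 0.84, and Gins2, whose product works with that helicase, rose by 0.78. Without siControl+DFO replicate 1 or 2, or siNCOA4+DFO replicate 3, 8 fell. In mitosis 10 of 33 genes fell (30.3%) and none rose, with a median of -0.17. Kif11, the spindle motor, fell from 45.0, 41.3 and 44.7 FPKM to 27.5, 26.5 and 31.6 FPKM, Tpx2 by 0.55, Cenpa by 0.62 and Cdc25c by 0.53. The mitotic falls numbered 6 without siControl+DFO replicate 1 or 3.

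Targets of stress pathways that iron chelation is known to engage were lower in several lists. Of 36 hypoxia-inducible factor targets, which prolyl hydroxylases keep off while iron and oxygen are present, 15 fell (41.7%) and none rose. Over all genes tested 10.7% fell and 6.40% rose. Of the 15, 3 fell more than 2-fold, and the list median was -0.28. Ndrg1, a stress gene long known to respond to iron chelators, was at 343, 350 and 326 FPKM in siControl+DFO and at 176, 156 and 125 FPKM in siNCOA4+DFO (-1.17, SE 0.15, adjusted p = 0.000536, limma). At normal iron it was at 38.1 ± 4.2 FPKM in siControl and 21.3 ± 4.4 FPKM in siNCOA4 (SD, n = 3). Pfkfb3, an activator of glycolysis, fell by 1.40, Mxi1, a partner of MAX, by 0.70, and the glycolytic enzymes Pgk1, Tpi1 and Pkm by 0.68, 0.57 and 0.43. Without siControl+DFO replicate 2 the falls numbered 9. Of 39 ATF4 targets, the arm of the integrated stress response that serves amino acid supply, 8 fell (20.5%) and 2 rose (5.13%). Over all genes tested the shares were 10.7% and 6.40%. With siControl+DFO replicate 2 or siNCOA4+DFO replicate 3 left out, 5 fell. Ppp1r15a (GADD34), the phosphatase subunit that ends that response, fell from 330, 348 and 268 FPKM to 179, 172 and 105 FPKM, Slc6a9, a glycine transporter, by 0.64 and Shmt2 by 0.51. Slc7a11, the cystine importer that feeds glutathione synthesis, rose from 16.8, 17.1 and 18.4 FPKM to 25.9, 25.6 and 24.4 FPKM (0.54, adjusted p = 0.015, limma), and did not pass without siControl+DFO replicate 1 or 2.

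Of 28 p53 targets 7 fell (25%, against 10.7% of all genes tested) and 2 rose (7.14%, near the 6.40% of all genes). The death receptor gene Fas fell from 40.8, 47.8 and 37.2 FPKM to 25.9, 19.1 and 12.5 FPKM (-1.18, SE 0.26, adjusted p = 0.00938, limma), the BH3-only gene Bbc3 (PUMA) by 0.95, the p53 ubiquitin ligase gene Mdm2 by 0.80, and the kinase genes Plk3 and Plk2 by 0.83 and 0.80, while Ddb2 rose by 0.55 and Ccng1 by 0.36. Fas was lowest in replicate 3 of siNCOA4+DFO. With siNCOA4+DFO replicate 3, or siControl+DFO replicate 1 or 2, left out, 4 targets fell. In apoptosis 2 of 20 tested pro-apoptotic genes fell, Bbc3 and Aifm1 (-0.53), which is 10% against 10.7% of all genes tested. Of 15 anti-apoptotic genes 3 rose (20%, against 6.40% of all genes tested), and Mcl1 fell by 0.41. All 3 that rose were the Naip genes above, whose family shares sequence, so they are not independent members.

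In heat shock 8 of 17 genes fell (47.1%) and 1 (5.88%), Hspa8, rose by 0.37. The shares over all genes tested were 10.7% and 6.40%. Dnajb1, a stress-induced co-chaperone, fell from 96.4, 93.5 and 85.5 FPKM to 64.8, 56.7 and 43.4 FPKM, Hsph1 by 0.62, Bag3 by 0.54 and Dnajb4 by 0.50. The count was 4 without siControl+DFO replicate 2 and 5 without siControl+DFO replicate 1 or siNCOA4+DFO replicate 3. In endoplasmic reticulum stress 5 of 23 fell (21.7%) and 1 (4.35%), Dnajc3, rose by 0.32. Pdia4, a disulfide isomerase, fell from 104, 131 and 126 FPKM to 57.6, 67.8 and 59.5 FPKM (-0.96, SE 0.10, adjusted p = 0.0002, limma), and Hspa5, the chaperone BiP, by 0.61. The 5 became 3 without siControl+DFO replicate 2 or 3 or siNCOA4+DFO replicate 3. In the circadian clock 4 of 15 fell (26.7%), Nr1d1, Nr1d2 (-0.84), Bhlhe40 (-0.72) and Clock (-0.52), and 1 (6.67%), Cry1, rose by 0.71. Of 40 antioxidant and ferroptosis-defence genes 2 rose, Slc7a11 and Prdx4 (0.39), and 3 fell, the pentose phosphate enzyme genes G6pdx (-0.75) and Tkt (-0.51) and Nfe2l2 (-0.26), which encodes NRF2. These shares, 5% and 7.5%, were below the 6.40% and 10.7% of all genes tested. The rises numbered 0 without siControl+DFO replicate 1 and 1 without siControl+DFO replicate 2 or 3 or siNCOA4+DFO replicate 2 or 3. Cholesterol synthesis and uptake had 3 rises and 2 falls among 24 (12.5% and 8.33%), the fall of Dhcr7 by 0.43 being the largest. The rises numbered 1 without siControl+DFO replicate 1 or 2 or siNCOA4+DFO replicate 2 or 3, and 7 with quantile normalization. The falls numbered 0 without siControl+DFO replicate 2 or 3 or siNCOA4+DFO replicate 1 or 3, and 1 without siControl+DFO replicate 1.

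Of 79 tested nuclear-encoded respiratory chain genes 1 rose (1.27%) and 2 fell (2.53%), with a median of 0.01. These shares were below the 6.40% and 10.7% of all genes tested. The rises ran from 0 to 12 over the other settings, 12 with quantile normalization and 7 without small RNA genes. Cox7b, a subunit of cytochrome c oxidase, fell from 101, 101 and 91.4 FPKM to 47.9, 41.9 and 43.6 FPKM (-1.13, SE 0.14, adjusted p = 0.000504, limma). Atp5d fell by 0.44 and Ndufb3 rose by 0.53. Cytosolic ribosomal protein genes had a negative fold change in 74 of 82, with a median of -0.20. Only 2 passed, both falls (2.44%, against 10.7% of all genes tested). Rpl14 (-0.31) was one of them, and 33.1% of its 75-base stretches also occur in other transcripts, Rpl14-ps1 among them. Small nucleolar and Cajal body RNAs had a median of 0.23 and 15 microRNA genes a median of 0.18, with none of the 82 and none of the 15 passing the limma test. Their single fold changes ranged from -8.32 to 5.66.

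Genes of cell shape and surroundings fell and rose. In extracellular matrix 8 of 42 rose (19.0%) and 7 fell (16.7%), against 6.40% and 10.7% of all genes tested. Cyr61, a matricellular gene, fell from 219, 268 and 264 FPKM to 137, 137 and 84.6 FPKM, Mmp14, a membrane-bound metalloproteinase, by 0.97 and Adamts1 by 0.94. Among the collagens, Col3a1 rose from 49.2, 58.2 and 63.8 FPKM to 71.0, 89.2 and 127 FPKM (0.71, adjusted p = 0.0137, limma), Col5a2 by 0.67, Col5a1 by 0.58 and Col6a2 by 0.54, and Col8a1 fell by 0.62. Col1a1 (0.35) and Col1a2 (-0.02) did not pass. The rises numbered 4 without siControl+DFO replicate 1, 5 without siControl+DFO replicate 2 or siNCOA4+DFO replicate 3, and 14 without siControl+DFO replicate 3. In the actin cytoskeleton 12 of 39 fell (30.8%) and 2 rose (5.13%). Marcksl1, which binds actin at the membrane, fell from 140, 152 and 123 FPKM to 65.4, 59.2 and 37.2 FPKM (-1.39, SE 0.17, adjusted p = 0.000457, limma), Cfl2, a cofilin, by 1.21 and Tpm2 by 0.74. Among 34 tested genes of neuron development and axon guidance 10 fell (29.4%) and 3 rose (8.82%). Epha2, an ephrin receptor, fell from 103, 122 and 111 FPKM to 61.5, 59.02 and 37.5 FPKM (-1.12, SE 0.16, adjusted p = 0.00109, limma), and the semaphorin receptor Nrp2 by 0.89. Ptn, the growth factor pleiotrophin, rose by 0.91, and replicate 3 at 40.5 FPKM was well above the 21.4 and 18.2 FPKM of the other knockdown libraries. Without siControl+DFO replicate 2 or 3 the falls in this list numbered 5.

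The knockdown at normal iron shares no library with the comparison above. There 545 genes rose (4.72%) and 863 fell (7.48%). The genes that passed in both settings numbered 610, which is 30.9% of those that passed under DFO and 43.3% of those at normal iron, and 586 of the 610 moved the same way. Across the 11541 genes the fold changes had r = 0.24 and rho = 0.35, a description only, since genes are not independent replicates. The 40 genes called in both all moved the same way, which is 16.9% of those called under DFO. Among them, Ncoa4 fell by 2.67 under DFO and 2.71 at normal iron, and Nr1d1 by 1.96 and 1.74.

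The difference between the knockdown effects, tested as the interaction of siRNA and DFO in the same limma model, passed for 265 genes (2.30%). Leaving out 1 of the 12 libraries gave 86 to 304, the lowest without siControl+DFO replicate 1, and quantile normalization gave 170. Of the 265, in 177 the effect was more negative under DFO and in 88 more positive. In 24 the knockdown effect passed in both settings with opposite signs. The 5 smallest p-values belonged to Eda2r, Inhba, Cdkn1a, Ankrd1 and Tef. Cdkn1a, the p53-induced cell cycle inhibitor p21, was at 15.03 ± 2.0 FPKM in siControl, 53.2 ± 2.9 in siNCOA4, 445 ± 19 in siControl+DFO and 340 ± 84 in siNCOA4+DFO (SD, n = 3). Knockdown thus went with a higher level at normal iron (1.82), while under DFO the change was -0.42 and did not pass (adjusted p = 0.0824, limma). Eda2r, another p53 target, went from 5.92 ± 0.70 to 17.9 ± 1.2 FPKM at normal iron and from 70.0 ± 1.3 to 74.98 ± 5.4 FPKM under DFO. Inhba, the activin A subunit, rose by 0.80 at normal iron and fell by 0.79 under DFO. Ankrd1, a stretch-responsive gene, was at 36.9 ± 2.0 and 36.4 ± 1.4 FPKM at normal iron and fell from 106, 108 and 100 FPKM to 53.8, 51.7 and 47.1 FPKM under DFO (-1.04, SE 0.07, adjusted p = 1.07e-05, limma). Tef, a clock-output factor, fell by 1.24 at normal iron and was at 16.2 ± 0.96 and 16.5 ± 0.67 FPKM under DFO.

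The interaction passed for 10 of 28 p53 targets, of which 12 rose and none fell with the knockdown at normal iron, for 8 of 25 cytokine and NF-κB genes, of which 5 rose and 4 fell there, and for 6 of 17 heat shock genes, of which 4 rose and none fell there. It passed for 1 of the 28 immediate early genes, of which none rose and 5 fell at normal iron, and for 3 of 36 hypoxia targets, of which 2 rose and 14 fell there, with medians of -0.31 and -0.27. It passed for 5 of 40 interferon genes, of which 14 rose and none fell at normal iron, with a median of 0.60. It passed for none of the 59 histone genes, of which 13 fell there. Over all genes tested the interaction passed for 2.30%, and at normal iron 4.72% rose and 7.48% fell. Whether the shares differed between lists was not tested.

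**Figure D5:**
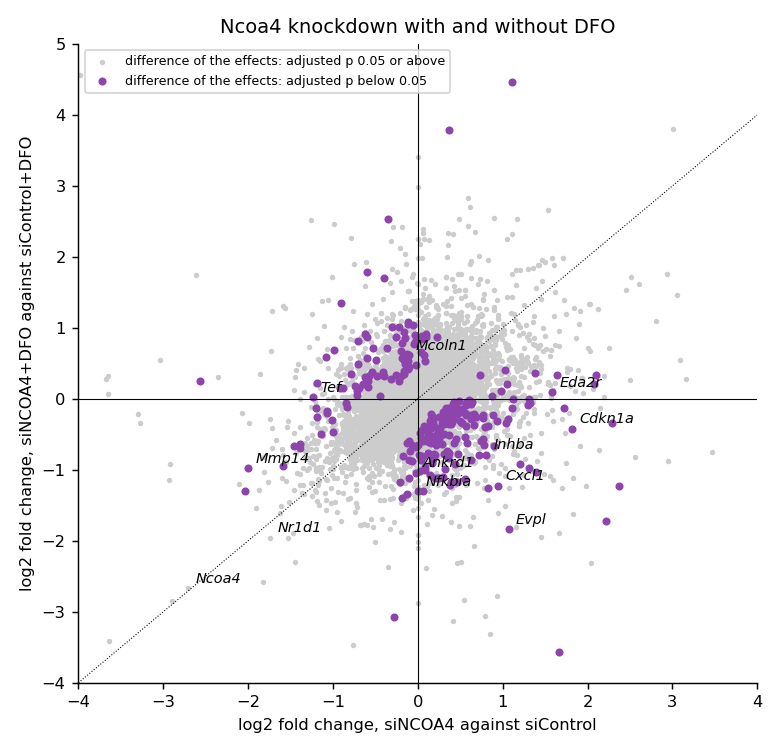
Log2 fold change with Ncoa4 knockdown under DFO (vertical axis) against that at normal iron (horizontal axis) for the tested genes; purple marks the 265 genes for which the 2 effects differed at adjusted p below 0.05, and the dotted line marks equal effects. Ncoa4 and Nr1d1 lie near the line, while Cdkn1a and Cxcl1 lie to the right of zero and below it; 28 genes lie outside the axes.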

How the data were processed

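Total RNA of HT22 cells was sequenced as stranded total RNA-seq libraries. The authors deposited one table of FPKM per sample. Beyond the tools named next, how these values were made, with which gene annotation and strand setting, is not given in the sources used here. The submitters' processing notes name FastQC, Trimmomatic 0.33, HISAT2 2.1.0, the mouse build mm10, featureCounts and edgeR. No counts were used, so no count test was run, and the tables give no read totals; the study's methods state only a minimum depth that sequencing aimed for, so the depth of each sample is not known. Of 24347 gene entries 4 share a name with another and were left out, and 27 names had been turned into dates by a spreadsheet.

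FPKM values were analysed as log2(FPKM + 0.1), so fold changes of low genes are understated. A linear model of all 12 samples (4 groups of 3) used limma 3.58.1 under R 4.3.3 and a trend in the moderation. It covered genes with at least 0.5 FPKM in 3 or more of the 6 DFO-treated samples, and p-values were adjusted by Benjamini and Hochberg over 11541 genes. Named genes were Ncoa4, Tfrc, Slc11a2 and Krt16; the 8 largest rises and falls among called genes with a mean of at least 1 FPKM and separate groups; all genes of 3 iron lists; up to 4 passing genes with the largest change in every other list; and the 5 smallest interaction p-values. Others named beside a list count were chosen after their values were seen. A few genes that these rules name are not reported here, though list counts include them. Members and lists were chosen with earlier results of these data known. Sequences came from GENCODE vM21 and RefSeq (GRCm38). Alternatives covered pseudocount, filter, scaling, the model and leaving out single samples. Sequences and locations use 128 of 132 named genes found in the annotation.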

Additional observations from a re-analysis of the deposited data

Results flagged for a closer look

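For the genes named here the effect of Ncoa4 knockdown differed between DFO and normal iron by the interaction test (limma, adjusted p below 0.05 over 11541 genes), and the values here are the log2 fold change under DFO minus that at normal iron. The difference was negative for Evpl (-2.91), Cdkn1a (-2.24), Cxcl1 (-2.17), Ccl5 (-1.63), Hbegf (-1.60), Inhba (-1.59), Fas (-1.57), Eda2r (-1.49), Cyr61 (-1.39), Nfkbia (-1.30), Marcksl1 (-1.20), Dnajb1 (-1.13), Ankrd1 (-1.02), Dnajb4 (-0.72), Tpx2 (-0.58) and Hsph1 (-0.50). It was positive for Adamts1 (0.64), Mcoln1 (0.72), Mmp14 (1.03), Col3a1 (1.07), Tef (1.26), Ptn (1.53) and Gm19705 (3.35). Gm19705 was listed at 0 in siControl+DFO, so its value depends on the pseudocount. Cxcl1 rose with the knockdown at normal iron by 0.95 and fell under DFO by 1.22, and Mmp14 fell in both settings, by 2.00 and 0.97.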

How the results depend on the processing

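Replicate numbers are only names here, since deviations of same-numbered libraries correlated at -0.065, -0.050 and 0.013. With a replicate block, 226 genes were called (108 higher, 118 lower), 1752 passed and the interaction passed for 178. A pseudocount of 1 gave 130 called (32 higher), and one of 0.01 put Krt16 at -2.36 (adjusted p = 0.123, limma). With an FPKM of at least 2, 58 were higher. Without small RNA genes, 173 were higher and 91 lower, 65.5% higher against 48.7% as reported, and quantile normalization gave 39.8%. Quantile normalization gave 170 interactions and Tfrc at -0.22 (adjusted p = 0.189, limma). The 6 DFO-treated samples alone gave 56 higher and 1242 passing. Adjusted p alone gave 1973 (739 higher, 1234 lower), and a 1.5-fold limit 847 (364 higher, 483 lower). Leaving out 1 library gave 166 to 269 called, 67 to 133 higher, 1222 to 1873 passing and 86 to 304 interactions. The causes were not tested. Of 2229 combinations of a named gene and an alternative, 140 lost an adjusted p below 0.05, 5 gained one and none reversed. Losses of the 2-fold limit were not counted. Among counts in gene lists, 203 of 1152 moved by over 1.5 times. The tables give no read totals, so the depth behind low genes is not known.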
